A study of Homo sapiens with 4 samples.

Results

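The translation initiation factors are the proteins that bring the ribosome, the initiator tRNA and an mRNA together at a start codon. Their genes were taken here as every probe set annotated to exactly 1 gene whose symbol is EIF followed by a digit from 1 to 6. That choice held 167 of the 49293 probe sets other than controls, and 51 of 18132 genes. It includes the EIF2AK kinases and the EIF4EBP inhibitors, which regulate initiation.

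Total RNA of LNCaP, a human prostate cancer line that responds to androgen, was measured on 4 Affymetrix arrays. For 2 arrays the cells had been given exosomes, small secreted vesicles, made by PC-3, an androgen-independent prostate cancer line. The cells of the other 2 were untreated by their sample labels, which give no agent, and had received PBS according to the treatment text. Both groups grew in RPMI-1640 with fetal bovine serum, and nothing says whether the arrays of a group came from separate cultures, so the p-values may measure technical spread alone.

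Initiation begins when eIF2, loaded with GTP and initiator tRNA, joins the small ribosomal subunit together with eIF1, eIF1A, eIF3 and eIF5. The eIF4F complex, made of the cap-binding eIF4E, the scaffold eIF4G and the helicase eIF4A, brings the mRNA, and eIF5B joins the large subunit. The pathway has a pair of well-known brakes. The EIF2AK kinases phosphorylate the alpha subunit of eIF2 under stress, which blocks the exchange factor eIF2B and favours translation of ATF4, and the 4E-BP proteins hold eIF4E until mTOR phosphorylates them. Both brakes act through phosphorylation, which these arrays do not measure.

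None of the 51 genes passed the test. In limma's fit across all genes 0 rose and 0 fell at a Benjamini-Hochberg adjusted p under 0.05, where 0.706% of all genes rose and 0.188% fell. At an unadjusted p under 0.05, 4 of the 51 (7.84%) were higher with exosomes and 1 (1.96%) was lower, against 5.76% and 5.16% of all genes. The median log2 fold change was 0.01 over the 51 genes and -0.01 over all genes, where a fold change is exosome over PBS. Single values ran from -0.09 for EIF1B to 0.20 for EIF2AK3. The 95% interval lay wholly within 0.25 of 0 on the log2 scale, a fold of 1.19 either way, for 45 of the 51 genes (88.2%), and for 55.2% of all genes. The members were bright, and among the 5490 genes at or above the 10th percentile of their means that share was 82.6%. Of those 5490 genes, 78 rose and 28 fell (1.93%).

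**Figure D1:**
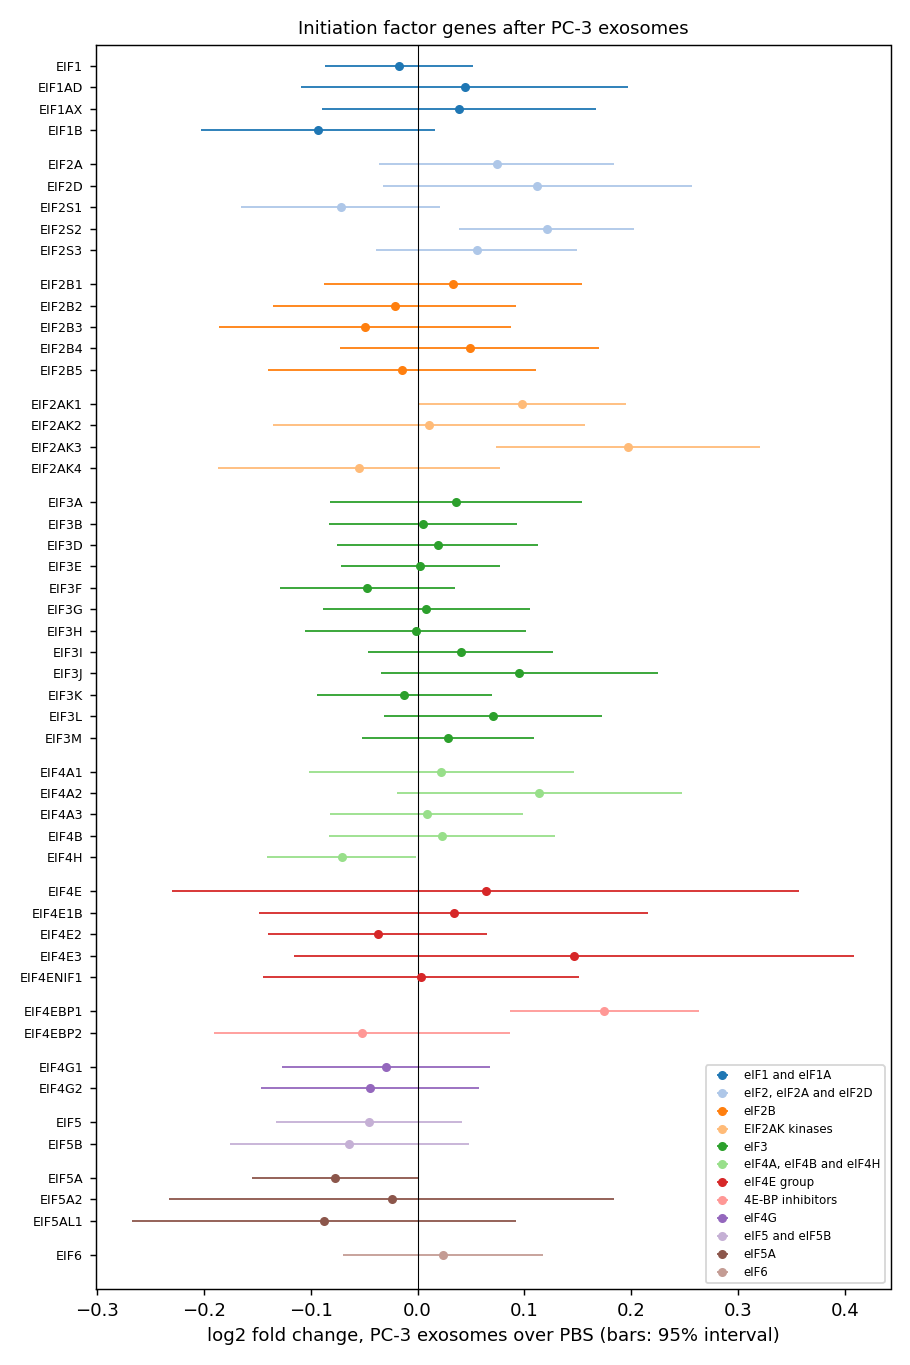
Log2 fold change, PC-3 exosomes over PBS, with its 95% interval for 50 of the 51 genes, grouped by role (the Y-linked EIF1AY is counted but not drawn). Most points lie within 0.1 of 0, and before any adjustment the intervals of EIF4EBP1, EIF2AK3, EIF2S2 and EIF2AK1 lie above 0 and that of EIF4H below it.

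Arrays of the 2 conditions were fully separated, with exosomes higher, for 12 of the 51 genes (23.5%), and with exosomes lower for 8 (15.7%). Among all genes these shares were 17.8% and 21.9%. With 2 arrays a side, the smallest two-sided p of an exact permutation test is 0.333, and the p-values given come from limma, which shares variance between genes. When every probe set was tested, again 0 of 167 rose and 0 fell, with 0.219% and 0.0122% of all probe sets called. The arrays did not overlap for 28 member probe sets with exosomes higher (16.8%) and 25 lower (15.0%), against 17.0% and 20.6% of all probe sets. At an unadjusted p under 0.05, 8 member probe sets (4.79%) were higher and 6 (3.59%) lower, against 4.67% and 4.15% of all probe sets.

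The cells carried prostate markers, although in bulk RNA fewer cells of a type and less RNA per cell cannot be told apart. The 5 luminal prostate markers measured, KLK3 and TMPRSS2 among them, ranked between the 95.2nd and 99.4th percentile of all genes' mean log2 values, and 0 of them rose or fell. The summed intensity of the 6 markers of PC-3 and mesenchymal cells was 862 to 891 with exosomes and 908 to 938 with PBS, 0 of them called. VIM, the brightest, had 506 and 543 with exosomes and 574 and 528 with PBS (log2 -0.07). LGALS1 was at -0.22, while CD44, CAV1, ANXA1 and AXL lay between -0.02 and 0.03. The text on RNA extraction names brain tissue, and 6 brain markers summed to 1383 to 1410 with exosomes and 1268 to 1293 with PBS, 0 of them called; their part in the results was not tested. Of these 6, MBP, a myelin protein gene, had 867 and 868 on the exosome arrays, against 764 and 764 on the PBS arrays (log2 0.18). GFAP and AQP4 were at 0.12 and 0.11, and SNAP25, SYT1 and MAP2 at -0.05, -0.08 and -0.11. The array's poly-A spike-in controls, RNAs that are put in during preparation, were on average 0.14 higher on the log2 scale with exosomes. Their means were 6.94 and 7.02 on the exosome arrays and 6.90 and 6.77 on the PBS arrays. The PBS arrays thus differed from each other by nearly as much as the groups did. On a scale centred on these controls the median of all genes moved to -0.15 and that of the 51 genes to -0.13.

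Promoter sequence is shown first for 3 of the 4 eIF2 kinases, which sense different stresses, and for EIF4E and EIF4H, which hold the E-box CACGTG that MYC and related factors bind. Each line gives the 250 bases before the gene's start (RefSeq, GRCh38.p14), 5′ to 3′ along the gene, with matches to the E-box in capitals. They lie at chr2:88627465-88627714 (minus strand), chr2:37156981-37157230 (minus), chr15:39933865-39934114 (plus), chr4:98929134-98929383 (minus) and chr7:74174106-74174355 (plus), in the order printed.
EIF2AK3: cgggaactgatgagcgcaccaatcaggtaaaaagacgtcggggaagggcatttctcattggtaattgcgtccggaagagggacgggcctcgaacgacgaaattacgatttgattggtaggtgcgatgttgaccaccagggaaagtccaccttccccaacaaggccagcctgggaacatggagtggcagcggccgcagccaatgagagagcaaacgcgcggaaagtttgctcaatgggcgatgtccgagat
EIF2AK2: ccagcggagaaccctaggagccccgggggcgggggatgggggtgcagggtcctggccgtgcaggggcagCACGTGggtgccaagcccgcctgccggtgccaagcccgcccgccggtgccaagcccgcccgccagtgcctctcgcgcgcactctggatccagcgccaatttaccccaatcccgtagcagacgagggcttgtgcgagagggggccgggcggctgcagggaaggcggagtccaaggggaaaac
EIF2AK4: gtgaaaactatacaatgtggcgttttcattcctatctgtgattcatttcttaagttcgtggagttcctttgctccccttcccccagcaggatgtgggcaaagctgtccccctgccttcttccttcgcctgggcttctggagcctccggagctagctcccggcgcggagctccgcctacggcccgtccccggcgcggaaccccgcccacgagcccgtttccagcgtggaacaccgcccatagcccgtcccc
EIF4E: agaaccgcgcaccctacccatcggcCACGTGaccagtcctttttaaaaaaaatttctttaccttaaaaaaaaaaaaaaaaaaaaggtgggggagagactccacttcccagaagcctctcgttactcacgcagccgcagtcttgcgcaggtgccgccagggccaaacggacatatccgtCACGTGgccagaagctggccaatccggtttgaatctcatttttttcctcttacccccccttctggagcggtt
EIF4H: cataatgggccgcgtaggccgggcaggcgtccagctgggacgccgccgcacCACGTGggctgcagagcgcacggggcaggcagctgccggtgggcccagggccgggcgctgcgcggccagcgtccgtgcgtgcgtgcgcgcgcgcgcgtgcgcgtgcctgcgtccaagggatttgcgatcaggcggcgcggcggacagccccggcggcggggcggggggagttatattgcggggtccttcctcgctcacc

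In these promoters, taken from 250 bases before to 50 after the start, 3 motifs were searched on both strands. The table held 57 promoters for 43 of the 51 genes. The E-box CACGTG stood in 11 of the 57 (19.3%), against 7.26% of all 35116 promoters. Those 11 promoters belong to 11 genes: EIF1B, EIF2AK2, EIF2B3, EIF3F, EIF3K, EIF4A3, EIF4B, EIF4E, EIF4G1 (in 1 of its 3 promoters), EIF4H and EIF5A2. The log2 fold changes of these genes ran from -0.09 to 0.06 with a median of -0.02. Genes with a promoter but no E-box had a median of 0.02. The amino acid response element TGATGNAA, which C/EBP-ATF factors bind, stood in 1 of the 57 (1.75%), a promoter of EIF4E3, against 3.62% of all promoters. The interferon-stimulated response element stood in 5 (8.77%), against 3.57% of all promoters. These 5 belong to only 4 genes, EIF2AK2, EIF2A, EIF3K and EIF6, because both of the 2 promoters of EIF6 are counted. In EIF2AK2 that match straddles the start, with 6 of its 10 bases at the end of the stretch printed, where it is not in capitals. Each motif was counted on its own, whether or not it overlapped another, and a match is only a match of letters.

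Among the eIF2 kinases, EIF2AK3 encodes PERK, which senses misfolded proteins in the endoplasmic reticulum. It had intensities of 643 and 643 with exosomes, against 559 and 563 with PBS. Both exosome arrays were above both PBS arrays, by a gap wider than the spread within either group. Its log2 fold change of 0.20 (fold 1.15, 95% interval 0.07 to 0.32 on the log2 scale) was the highest of the 51 genes and did not pass the test (limma adjusted p = 0.198). Its other 2 probe sets were at 0.10 and 0.14, each with overlapping arrays. The printed EIF2AK3 promoter holds none of the 3 motifs.

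EIF2AK1 encodes HRI, which is held inactive by heme. It had 3647 and 3481 with exosomes, and 3383 and 3276 with PBS (log2 0.10, SE 0.043, adjusted p = 0.454). All 8 of its probe sets were above 0, from 0.02 to 0.20, though not all of them separated the groups. On the scale centred on the poly-A spike-ins EIF2AK1 was at -0.04 (limma adjusted p = 0.725), where the median of all genes was -0.15. EIF2AK2 encodes PKR, which binds double-stranded RNA and is itself an interferon-induced gene. It had 487 and 510 with exosomes and 476 and 514 with PBS, so the PBS arrays bracketed the exosome arrays (log2 0.01, 95% interval -0.14 to 0.16). EIF2AK4 encodes GCN2, which senses uncharged tRNA. It had 482 and 498 with exosomes and 504 and 513 with PBS (log2 -0.06, SE 0.058, adjusted p = 0.810), with both exosome arrays below both PBS arrays.

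The target of these kinases is EIF2S1, the alpha subunit of eIF2. Its brightest probe set had 3160 and 3051 with exosomes and 3241 and 3288 with PBS (log2 -0.07, SE 0.041, adjusted p = 0.579). The 5 probe sets of EIF2S1 did not point one way, with 2 below and 3 above 0, and a range of -0.08 to 0.15. EIF2S2, the beta subunit, had 6154 and 6207 with exosomes, against 5761 and 5606 on the PBS arrays. The groups did not overlap, and the log2 fold change was 0.12 (fold 1.09, 95% interval 1.03 to 1.15, adjusted p = 0.233). EIF2S3, the gamma subunit that carries GTP and the tRNA, had 4127 and 4140 with exosomes and 3872 and 4087 with PBS (log2 0.06, adjusted p = 0.698). All 4 probe sets of EIF2S3 were above 0, up to 0.22. Of these, 2 at 0.16 had an unadjusted p of 0.016 and 0.018 (limma adjusted p = 0.436 and 0.448 over all probe sets). Those 2 moved in parallel across the 4 arrays and may not be separate measurements.

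A pair of factors act beside eIF2 in unusual initiation events. EIF2A had 1622 and 1689 with exosomes and 1539 and 1607 with PBS (log2 0.07, adjusted p = 0.643), while its dimmer probe set was at -0.23, with 35.0 and 37.1 with exosomes against 43.1 and 41.8 with PBS. EIF2D, which can deliver tRNA without GTP, had 773 and 713 with exosomes and 712 and 663 with PBS (log2 0.11, adjusted p = 0.580). The arrays did not overlap for EIF2D, although the lower exosome array was just above the higher PBS array.

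The exchange factor eIF2B, which reloads eIF2 with GTP, had 5 genes measured, 2 above and 3 below 0. Their log2 fold changes ran from -0.05 to 0.05, and 0 had arrays that separated the groups. EIF2B5, the catalytic epsilon subunit, had 643 and 619 with exosomes and 638 and 635 with PBS, with a log2 fold change of -0.01 and a 95% interval of -0.14 to 0.11. All 5 intervals lay within 0.25 of 0.

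**Figure D2:**
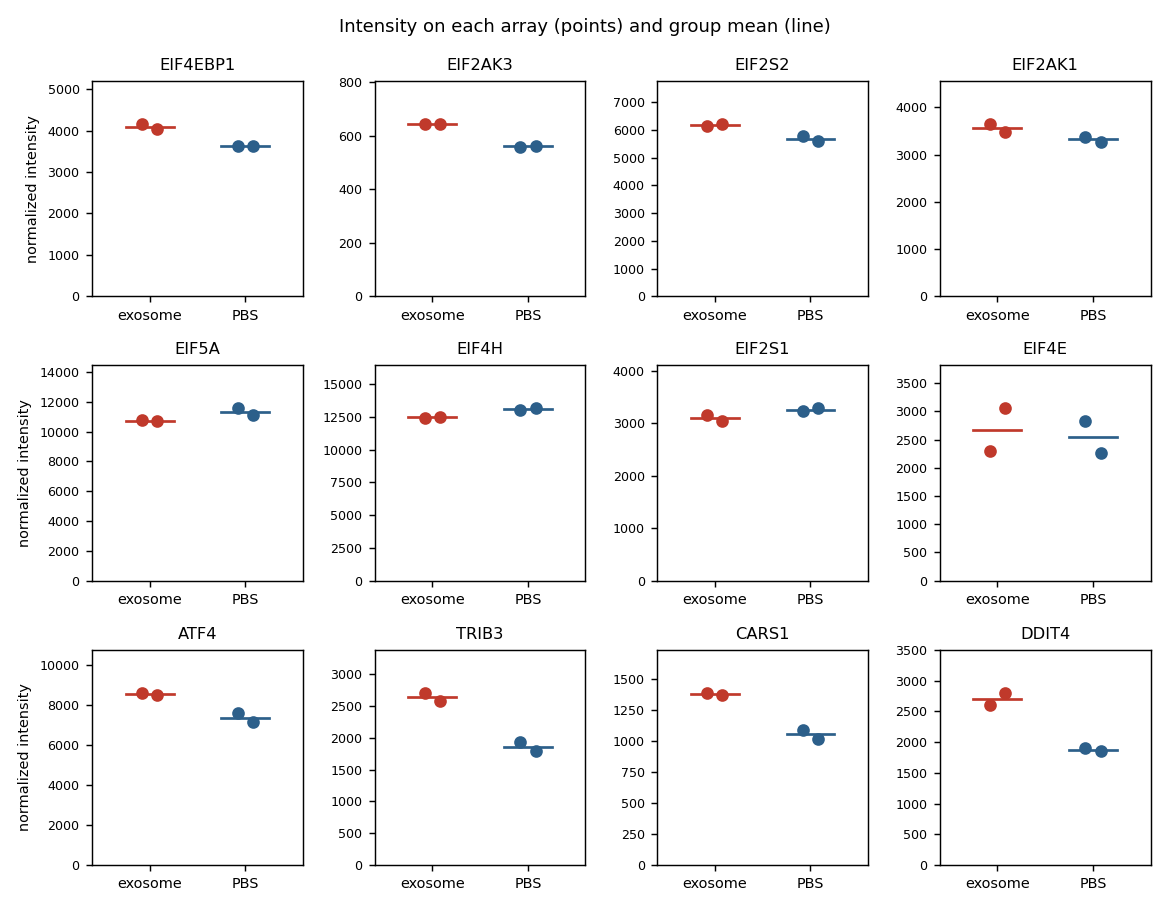
Normalized intensity on each array (points) and the mean of the 2 arrays (line), PC-3 exosomes left and PBS right, for 8 initiation genes and 4 genes that act with them; each axis starts at 0. The gaps of TRIB3, CARS1 and DDIT4 are the wide ones, that of ATF4 (log2 0.21) is about the size of those of EIF2AK3 (0.20) and EIF4EBP1 (0.17), and the groups overlap for EIF4E.

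Of the inhibitors, EIF4EBP1 encodes 4E-BP1, which binds eIF4E and keeps it from eIF4G. It had 4155 and 4032 with exosomes, against 3618 and 3633 with PBS. Mean intensity was 4094 ± 87.5 on the exosome arrays, against 3626 ± 10.6 on the PBS arrays (SD, n = 2 each). The log2 fold change was 0.17 (SE 0.039, fold 1.13, 95% interval 1.06 to 1.20). EIF4EBP1 had the smallest p of the 51 genes (unadjusted p = 0.0015, limma adjusted p = 0.10) and so missed the threshold. When only genes at or above the median level were tested, which leaves fewer genes to adjust over, it passed, with an adjusted p of 0.041. By eBayes without a variance trend its adjusted p was 0.402. With each array left out in turn its log2 fold change ran from 0.15 to 0.20. Its other 2 probe sets had 2526 and 2400 with exosomes against 2203 and 2176 with PBS, and 2513 and 2448 with exosomes against 2174 and 2141 with PBS. Each of the 3 probe sets separated the groups, at 0.17 to 0.20, with unadjusted p between 0.0020 and 0.0072. Their limma adjusted p over all probe sets lay between 0.207 and 0.342. On the scale centred on the poly-A spike-ins the log2 fold change was 0.04 (adjusted p = 0.771), where the median of all genes was -0.15.

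EIF4EBP2, which encodes a related inhibitor, had 963 and 930 with exosomes and 1032 and 933 with PBS (log2 -0.05, SE 0.061, adjusted p = 0.839). Its 5 probe sets ran from -0.09 to 0.04. EIF4EBP3 has no probe set of its own. The probe set it shares with the readthrough transcript ANKHD1-EIF4EBP3, which is outside the 167, had 988 and 1005 with exosomes and 895 and 907 with PBS (log2 0.15, adjusted p = 0.483 over all probe sets).

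EIF4E, the cap-binding protein, varied within the groups more than between them. It had 2291 and 3053 with exosomes and 2826 and 2264 with PBS, with 1 high and 1 low array in each group. The log2 fold change of 0.06 therefore had a 95% interval of -0.23 to 0.36, the widest of the 51. Across its 7 probe sets the values lay between -0.04 and 0.06. EIF4E3, a paralog, had 155 and 200 with exosomes and 166 and 152 with PBS (log2 0.15, 95% interval -0.12 to 0.41). A single exosome array was high, and the other 4 probe sets of EIF4E3 lay between -0.06 and 0.01. EIF4E2, which encodes a cap-binding repressor, was at -0.04, and EIF4ENIF1, which carries eIF4E into the nucleus, was at 0.00. EIF4E1B, at 34.9 and 34.3 with exosomes and 34.1 and 33.4 with PBS, was dim. With both on the log2 scale, it lay below the mean of the background control probe sets on every array. That mean was 5.63 to 5.67 per array on the log2 scale, and it sets no detection limit.

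The scaffold gene EIF4G1 had 2869 and 2924 with exosomes and 3026 and 2888 with PBS (log2 -0.03, 95% interval -0.13 to 0.07). All 3 of its probe sets were below 0, and the dimmest, with 911 and 905 with exosomes against 1095 and 972 with PBS, was at -0.18 (unadjusted p = 0.026, adjusted p = 0.494 over all probe sets). EIF4G2, which encodes the related DAP5, was at -0.04.

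The helicase gene EIF4A2 had 3311 and 3761 with exosomes and 3310 and 3212 with PBS (log2 0.11, SE 0.059, adjusted p = 0.534). The first exosome array was level with the first PBS array, and the value rests on the other exosome array: without it the log2 fold change was 0.02. EIF4A1 needs care, because the probe sets with the strongest signal carry a second annotation. Its brightest own probe set had 602 and 601 with exosomes and 597 and 589 with PBS (log2 0.02). The other 3 were lower with exosomes, at -0.11, -0.21 and -0.30 (limma adjusted p = 0.693, 0.381 and 0.397 over all probe sets). The last of them was dim, close to the background mean, with 52.2 and 46.9 with exosomes against 60.3 and 62.1 with PBS. The 3 probe sets annotated to both EIF4A1 and SENP3-EIF4A1, at intensities of 13018 to 22385, lay between -0.05 and 0.01, and 0 of them passed. EIF4H, a cofactor of the helicase, had 12459 and 12519 with exosomes and 13068 and 13168 with PBS. Its arrays did not overlap, and the log2 fold change was -0.07 (fold 0.952, 95% interval 0.907 to 0.999, adjusted p = 0.450). Its second, dimmer probe set was at 0.15 with overlapping arrays. EIF4B, another cofactor, was at 0.02, and its 5 probe sets were all above 0, up to 0.15.

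**Figure D3:**
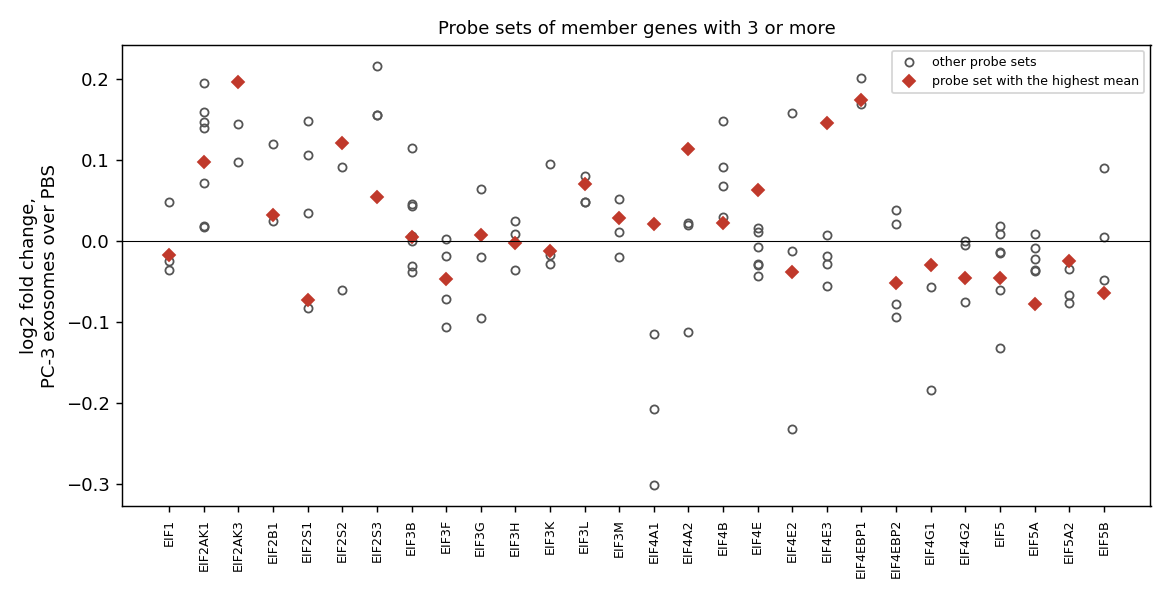
Log2 fold change, PC-3 exosomes over PBS, of each probe set for the 28 genes with 3 or more; diamonds mark the probe set with the highest mean and open circles the others. The probe sets of EIF4EBP1 lie close together at 0.17 to 0.20, while those of EIF4A1 and EIF2S1 lie on both sides of 0.

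The eIF3 complex, the large scaffold that joins the small subunit to the mRNA, was the largest group, with 12 genes measured and EIF3C seen only through probe sets it shares. Of these 9 were above and 3 below 0, with a median log2 fold change of 0.01 and a range of -0.05 to 0.09. All 12 intervals lay within 0.25 of 0, and 0 genes had an unadjusted p under 0.05. EIF3J, a loosely bound subunit, had 1570 and 1705 with exosomes and 1584 and 1481 with PBS (log2 0.09, adjusted p = 0.603). EIF3L had 3806 and 3924 with exosomes and 3804 and 3561 with PBS (log2 0.07, adjusted p = 0.632). EIF3F had 9127 and 8974 with exosomes and 9560 and 9144 with PBS (log2 -0.05, adjusted p = 0.708). EIF3I had 5679 and 5766 with exosomes and 5680 and 5450 with PBS (log2 0.04, adjusted p = 0.776). In the core of the complex EIF3A was at 0.04 and EIF3B, measured by 8 probe sets between -0.04 and 0.12, at 0.01. The 5 probe sets annotated to both EIF3C and EIF3CL lay between -0.06 and 0.11.

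Among the 5 genes grouped by symbol with eIF1 and eIF1A, EIF1AD included, 3 were above and 2 below 0, while EIF5 and EIF5B were both below. EIF1B, a paralog of the start-codon fidelity factor EIF1, had 1807 and 1696 with exosomes and 1867 and 1868 with PBS (log2 -0.09, SE 0.048, adjusted p = 0.537). Its second probe set had 1356 and 1364 with exosomes and 1492 and 1471 with PBS (log2 -0.12, unadjusted p = 0.032). EIF1 itself, with 15009 and 14725 with exosomes against 14997 and 15094 with PBS, was at -0.02. EIF5, which makes eIF2 hydrolyse its GTP, had 5035 and 5246 with exosomes and 5343 and 5265 with PBS (log2 -0.05, adjusted p = 0.743). EIF5B had 2094 and 1951 with exosomes and 2087 and 2139 with PBS (log2 -0.06, adjusted p = 0.710), and 2 of its 4 probe sets were above 0.

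EIF5A, which carries the amino acid hypusine and also helps elongation past difficult stretches, had 10790 and 10699 with exosomes and 11567 and 11114 with PBS. Both exosome arrays were below both PBS arrays (log2 -0.08, 95% interval -0.16 to 0.00, adjusted p = 0.458). Of its 6 probe sets 5 were below 0, and the one annotated to both EIF5A and EIF5AL1 was at -0.13. These genes are near copies, and how their probes split the signal is not known. EIF5AL1 itself was very dim, at 17.8 and 16.4 with exosomes and 18.2 and 18.2 with PBS, also below the background mean. EIF6, which keeps the large subunit from joining too early, had 3023 and 2966 with exosomes and 2993 and 2900 with PBS (log2 0.02, 95% interval -0.07 to 0.12).

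Of the 44 genes with more than 1 probe set, 13 had all of them above 0, 5 had all below, and 26 had both signs. In the names of the array design, 36 of the 167 probe sets carry the mark _x_at and 38 the mark _s_at, given to probe sets whose probes can match more than 1 transcript. For a member such as EIF2A, EIF2S1 or EIF4H the sign of the change depended on which of its probe sets was read. The opposing probe sets of EIF2A (35.0 to 43.1) and EIF4H (290 to 405) carry neither mark. Both were far dimmer than the probe sets that stood for these genes, and that of EIF2A lay below the background mean on every array.

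Genes that work beside the factors included some that did rise. Their lists were chosen with earlier results of these data known. The shares to set beside the counts in each list are those of all genes, of which 0.706% rose and 0.188% fell. For counts at an unadjusted p under 0.05, the shares of all genes were 5.76% higher and 5.16% lower. Of the 10 partners of eIF2 and the integrated stress response, 2 rose and 0 fell. ATF4, the transcription factor whose translation increases when eIF2 is phosphorylated, had 8638 and 8499 with exosomes and 7594 and 7184 with PBS (log2 0.21, SE 0.039, adjusted p = 0.045). TRIB3, a pseudokinase induced by ATF4, had 2712 and 2581 with exosomes and 1932 and 1795 with PBS (log2 0.51, SE 0.051, adjusted p = 0.0027). Leaving out any single array took ATF4 out of the calls, at log2 fold changes of 0.17 to 0.25, and TRIB3 was lost without PBS replicate 2 (adjusted p = 0.0502). On the spike-in scale ATF4 was at 0.07 (adjusted p = 0.589). Without a variance trend the adjusted p was 0.356 for ATF4 and 0.075 for TRIB3. DDIT3, which encodes CHOP, had 480 and 447 with exosomes and 375 and 335 with PBS (log2 0.39, adjusted p = 0.058). PPP1R15A, the inducible partner of the phosphatase that removes the mark from eIF2, was at 0.00, and its constitutive relative PPP1R15B was at -0.18 (adjusted p = 0.213). At an unadjusted p under 0.05, 3 of the 10 partners were higher and 1 lower.

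Among 19 cytosolic aminoacyl-tRNA synthetases, which charge tRNAs, 3 rose and 0 fell: CARS1 by 0.39, SARS1 by 0.34 and GARS1 by 0.31 on the log2 scale (limma adjusted p = 0.013, 0.013 and 0.019). Each of the 3 missed the threshold without exosome replicate 1, without exosome replicate 2 and without PBS replicate 2. On the spike-in scale CARS1, SARS1 and GARS1 were at 0.25, 0.20 and 0.17 (adjusted p = 0.077, 0.155 and 0.259), and without a variance trend their adjusted p was 0.145, 0.184 and 0.251. At an unadjusted p under 0.05, 10 of the 19 synthetases were higher and 0 lower, against 5.76% and 5.16% of all genes. The median of the list was 0.12, against 0.01 for the initiation factors and -0.01 for all genes. Of 20 partners at the cap, the poly-A tail and mTOR, 1 rose and 0 fell. That gene was DDIT4, which encodes the mTOR inhibitor REDD1, with 2609 and 2808 with exosomes and 1905 and 1850 with PBS (log2 0.53, SE 0.049, adjusted p = 0.0019). DDIT4 was lost without PBS replicate 2 (adjusted p = 0.0503) and without a variance trend (0.067). MTOR itself had 764 and 750 with exosomes and 744 and 710 with PBS (log2 0.06, adjusted p = 0.775). At an unadjusted p under 0.05, 4 of these 20 partners were higher and 0 lower.

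The remaining machinery stayed below the threshold in the same limma fit. In each of the next lists 0 genes rose and 0 fell, with the genes of smallest p given. Among 7 partners in start codon choice and ribosome recycling, BZW2 was at -0.06 and DENR at -0.06, with 0 genes at an unadjusted p under 0.05. The hypusine enzymes DOHH and DHPS were at -0.08 and -0.01. Of 10 elongation and termination factors, EEF2 was at 0.05 and EEF1B2 at 0.06, and 0 had an unadjusted p under 0.05. Among 68 cytosolic ribosomal proteins, RPL3L was at 0.24 and RPL27A at 0.12, and 1 gene, RPL3L, had an unadjusted p under 0.05. Their intensities, 49.5 to 62.5 for RPL3L and 261 to 300 for RPL27A, were low beside most of the list. The intervals of 66 of the 68 ribosomal proteins lay within 0.25 of 0, as did those of 12 of the 19 synthetases.

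**Figure D4:**
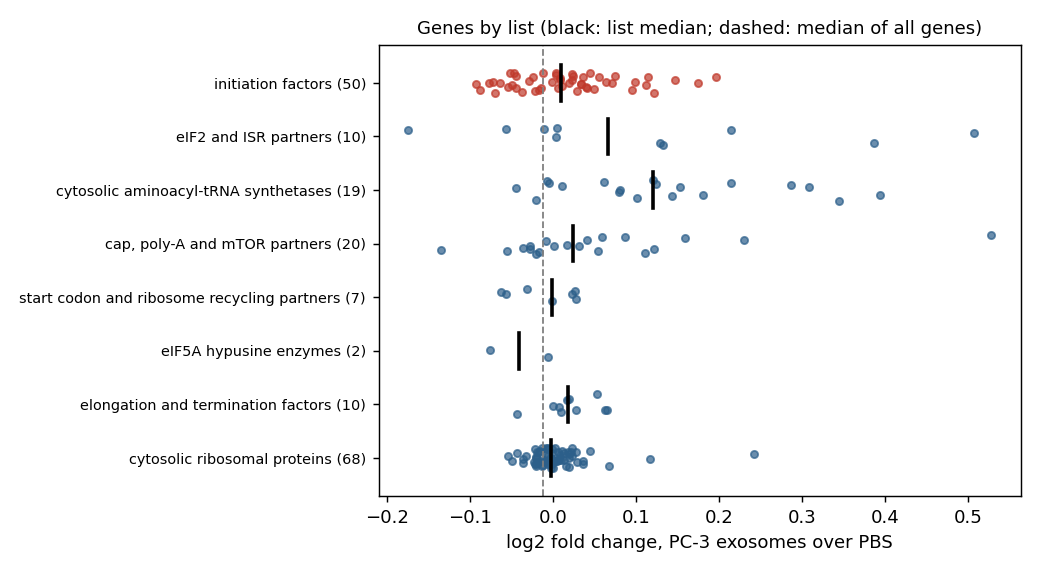
Log2 fold change, PC-3 exosomes over PBS, of each gene in the lists, with list medians (black) and the median of all genes (dashed, -0.01); the initiation factors are drawn in red, without EIF1AY. The initiation factors run from -0.09 to 0.20, and the synthetases reach 0.39, the partners of eIF2 0.51 and the cap, poly-A and mTOR partners 0.53.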

How the data were processed

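The authors deposited 1 intensity per probe set and array on a linear scale. MAS5 and RMA are listed in the submitters' processing notes, with no role or version. Arrays had medians of 110.8 to 112.5 and were not normalized further. Genes came from the platform annotation: of 49395 probe sets, 102 were controls, 44988 named 1 gene, 1832 several and 2473 none. The sources used here name no genome build for the probes.

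A pseudocount of 1 was added before log2. The probe set with the highest mean stood for its gene. limma 3.58.1 (R 4.3.3; lmFit, then eBayes with a trend) tested exosome minus PBS over all genes and, separately, over all 49293 probe sets, two-sided, with Benjamini-Hochberg adjustment over the whole table. The gene fit had 2 residual and 7.02 prior degrees of freedom, and the code was tested on simulated data. The number of arrays limits the precision. Alternatives covered normalization, pseudocount, dim-gene filters, the variance model, each array left out, the choice of probe set and the threshold. Figures used matplotlib 3.10.9.

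Members, lists, tests and alternatives were chosen with earlier results of these data known. By rule, values per array are given for 27 members: any that were called, the 20 of smallest p, and the kinases, inhibitors, EIF2S1, EIF2B5, EIF4E, EIF4G1, EIF5A and EIF6. From each list of partners the rule names up to 4 called genes or, with none called, the pair of smallest p, and ATF4. Other genes and probe sets named were added after their values were seen. No sequence of chromosome 8 is printed.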

Additional observations from a re-analysis of the deposited data

How the results depend on the processing

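The count of initiation genes past the threshold was 0 in the reported fit and in every alternative run except one. Testing only genes at or above the median level gave 1, EIF4EBP1. The smallest adjusted p of the genes lay between 0.041 and 0.482 over all settings. Of member probe sets, 0 were past the threshold except with arrays centred on the poly-A spike-ins, where 2 fell, 1 of EIF4A1 (log2 -0.35) and 1 of EIF4G1 (log2 -0.32). That scale also moved the members' median to -0.129, with 3 genes above and 48 below 0, where the median of all genes was -0.15. With each array left out in turn the counts stayed at 0 for genes and probe sets, and the median ran from -0.004 to 0.021.

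The 6 genes beside the factors became 3 (2 higher, 1 lower) on the spike-in scale, 10 among genes at or above the median level, 0 by eBayes without a trend and 2 at an adjusted p under 0.01. They became 9 with quantile normalization, 8 with each array centred on its median and 8 among genes at or above the 30th percentile. With an array left out they ran from 0 to 5. In the fit with a replicate block, 0 of the 6 were called (adjusted p = 0.186 for ATF4, 0.077 for TRIB3 and 0.104 for DDIT4), and 0 initiation genes with a smallest adjusted p of 0.272. The labels do not explain the numbers, and the deviations of same-numbered arrays correlated at -0.04 across genes. Where a cause is not given, the cause was not tested.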
